A study of Mus musculus with 38 samples.

Results

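*Vmn1r210* and *Vmn1r211* are neighbouring vomeronasal receptor genes on mouse chromosome 13, and their RNA is followed here through 5 bulk RNA-seq experiments in which *Trim28* was deleted in neural progenitor cells (NPCs), in adult neurons or in the developing cortex. These 2 genes, of 55298 in the count table, were chosen because they rose in *Trim28*-KO NPCs compared with lacZ controls, so their values in that comparison are a description and carry no test. Around them, a window of 800 kb of chromosome 13 (build GRCm38.p6) holds 915 transposable element (TE) copies of 3494634, the outermost at chr13:22500905 and chr13:23298656. It overlaps 57 annotated genes, the first and last of which, *Vmn1r202* and *4930557F10Rik*, reach beyond it, and among them are 41 *Vmn1r* genes and pseudogenes of 320 in the table.

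The *Vmn1r* genes encode G protein-coupled receptors through which sensory neurons of the vomeronasal organ detect pheromones. They lie in clusters on a few chromosomes, a mature vomeronasal neuron uses very few of them, and the brain is not known as a site where they act. Trim28 is a corepressor brought to DNA by KRAB zinc finger proteins, which often bind endogenous retroviruses (ERVs) and other TEs, and it recruits enzymes that write the repressive mark H3K9me3.

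NPCs came from forebrain of Rosa26-Cas9 knock-in embryos at embryonic day 13.5, which all express Cas9, and received lentiviral H2B-RFP with a guide RNA either to exon 3, 4 or 13 of *Trim28* (2 cultures for each guide, 6 *Trim28*-KO libraries) or to lacZ, a bacterial gene that mice lack (2 control libraries), and RFP+ cells were sorted after 10 days. By their sample numbers the NPC libraries fall into series 1, called here g3a, g4a, g13a and lacZ-a after the exon of the guide, and series 2, called g3b, g4b, g13b and lacZ-b. In adult Cas9-GFP knock-in mice, AAV guides with H2B-RFP under the neuronal synapsin promoter were injected in the striatum and RFP+ nuclei were sorted after 2 months (Cas9: 4 *Trim28*-KO animals and 1 lacZ animal). Stop-Cas9-GFP knock-in mice received AAV Cre under Synapsin1 together with guides carrying a Cre-inducible H2B-RFP (Stop-Cas9: 4 *Trim28*-KO and 1 lacZ). Adult *Trim28*-flox mice had flox on 1 or both alleles by the study's account, which names those with both as *Trim28*-KO. They were co-injected in the forebrain with AAV for Cre and AAV for nuclear GFP under synapsin. GFP+ nuclei were sorted 2 months later (flox: 4 libraries labelled *Trim28*-KO and 4 labelled control). In both guide experiments in animals, 3 *Trim28*-KO mice received a single guide and the fourth all 3 guides together. Cortex was taken at 3 months from animals with Emx1-Cre +/- on gtRosa, in which Cre acts from cortical progenitors onward, with Trim28-fl +/+ (*Trim28*-KO, both alleles excised, n = 3) or Trim28-fl +/- (control, 1 allele excised, n = 3). Of those cortices, 4, 2 of each genotype, were also profiled as single nuclei.

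The bulk libraries held 8790346 to 25345083 reads in genes, with 9996885 to 19922767 in the NPC libraries, and levels are given as CPM, counts scaled to the library's total, after TMM scaling within each experiment. *Trim28* itself stood at 36.8 to 73.5 CPM in the 6 *Trim28*-KO NPC libraries and at 157 and 204 CPM in the lacZ libraries (log2 fold change -1.82, edgeR quasi-likelihood test, Benjamini-Hochberg adjusted p = 0.031), but leaving out a single library, which gave log2 fold changes of -1.62 or lower, took the adjusted p above 0.05 in 6 of 8 cases, to 0.067 to 0.090 without *Trim28*-KO library g4a, g13a, g3b or g4b, 0.23 without lacZ-a and 0.41 without lacZ-b. In *Trim28*-KO cortex *Trim28* was at 6.07 to 8.86 CPM against 19.0 to 21.4 CPM in controls (log2 fold change -1.39, edgeR adjusted p = 0.000364). In Cas9 nuclei all 4 *Trim28*-KO animals lay below the lacZ animal (93.7 to 105 CPM against 143 CPM, edgeR adjusted p = 0.41), and in Stop-Cas9 nuclei they lay on both sides of it (88.4 to 127 CPM against 105 CPM, edgeR adjusted p = 1.00). Each of these experiments has 1 control library, assumed in every test to vary like the *Trim28*-KO libraries, so a p above 0.05 there does not show that a gene did not differ. In the flox experiment the targeted gene went against the labels: the 4 libraries labelled *Trim28*-KO held 130 to 146 CPM and the 4 labelled control 25.6 to 31.6 CPM (log2 fold change 2.26, edgeR adjusted p = 2.72e-06). Flox libraries are therefore named by their labels, and no direction is drawn from them.

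Both receptor genes lie on the minus strand. *Vmn1r210* (ENSMUSG00000061296.2) spans chr13:22825875-22831348 with 3500 bases of exon, and *Vmn1r211* (ENSMUSG00000063998.4) spans chr13:22847426-22857561 with 5456 bases of exon. Their coding sequences, of 918 and 894 bases in the reference genome, were identical at 71.2% of 925 aligned columns. Of all 64-base stretches in their exons, 90.5% occurred once in the genome for *Vmn1r210* and 99.0% for *Vmn1r211*. To show how the receptors differ, the first 120 coding bases of each are given 5′ to 3′ from RefSeq GRCm38.p6, at chr13:22827995-22828114 and chr13:22852376-22852495 on the minus strand, with bases that are identical in the alignment in capitals.
Vmn1r210: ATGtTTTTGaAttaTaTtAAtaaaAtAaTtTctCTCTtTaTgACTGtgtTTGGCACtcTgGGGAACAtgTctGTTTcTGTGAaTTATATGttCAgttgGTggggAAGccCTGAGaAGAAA
Vmn1r211: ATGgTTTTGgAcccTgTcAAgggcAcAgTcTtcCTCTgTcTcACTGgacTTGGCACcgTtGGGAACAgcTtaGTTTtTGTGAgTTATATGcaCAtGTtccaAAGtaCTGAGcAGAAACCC

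*Vmn1r210* had reads in all 6 *Trim28*-KO NPC libraries and in neither lacZ library. Its counts were 56 and 54 with the guide to exon 3 (g3a and g3b), 30 and 55 with the guide to exon 4 (g4a and g4b) and 45 and 32 with the guide to exon 13 (g13a and g13b). After scaling these were 2.99, 2.87, 1.95, 3.16, 2.58 and 3.07 CPM, with a mean of 2.77 ± 0.45 (SD, n = 6). No library of the KO group approached the 0 reads of the controls. Because both controls were at 0, the fold is a lower bound: taking 3 reads in each control library as the floor, 0.155 CPM, *Vmn1r210* was at least 17.9-fold higher.

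*Vmn1r211* had 66 and 90 reads with the guide to exon 3, 49 and 49 with the guide to exon 4 and 79 and 24 with the guide to exon 13, and 0 in both lacZ libraries. Its level was 3.52, 4.79, 3.19, 2.82, 4.54 and 2.30 CPM in the same order, with a mean of 3.53 ± 0.97 (SD, n = 6), at least 22.7-fold above the floor. The receptor genes thus shared the split between *Trim28*-KO and lacZ libraries, while their lowest *Trim28*-KO cultures were different ones, g4a for *Vmn1r210* and g13b for *Vmn1r211*. In bulk RNA, a change in the number of cells that carry a transcript and a change in RNA per cell cannot be told apart.

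**Figure D1:**
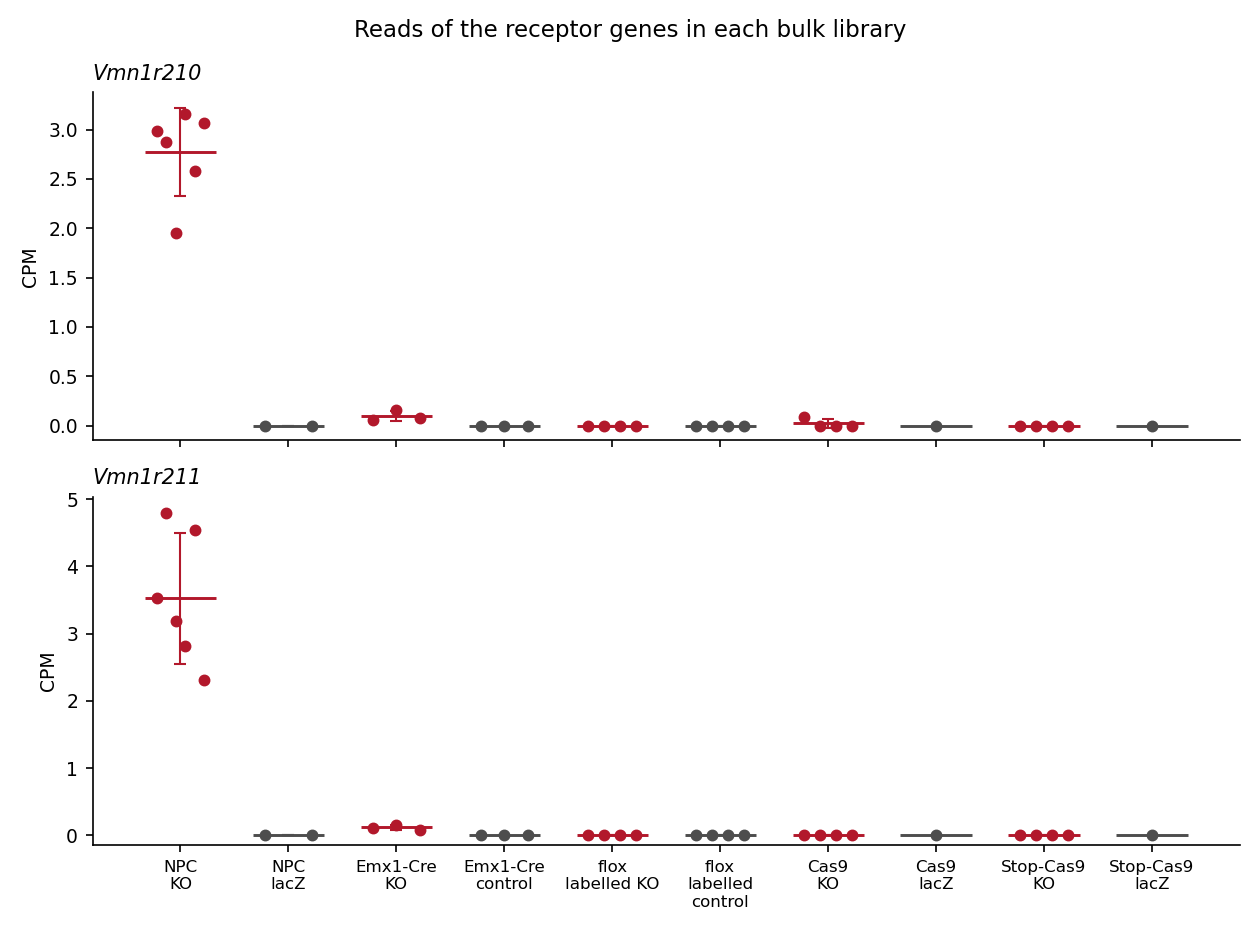
CPM of Vmn1r210 (top) and Vmn1r211 (bottom) in each of the 32 bulk libraries, by group; a point is a library, the bar is the mean and the whiskers are the SD. The 6 Trim28-KO NPC libraries sit between 1.95 and 3.16 CPM and between 2.30 and 4.79 CPM, and the other groups lie at or near 0.

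Per length, the level in *Trim28*-KO NPCs was low but inside the range of other tested genes: 0.79 ± 0.13 CPM per kb of exon for *Vmn1r210* and 0.65 ± 0.18 for *Vmn1r211* (SD, n = 6), above 18.3% and 15.9% of the tested genes, whose median was 4.50 CPM per kb. The 3 guides could be compared within the *Trim28*-KO cultures, a contrast that did not serve to choose the genes. Neither receptor gene differed by guide in an F test with the number series as a block (edgeR quasi-likelihood, adjusted p = 0.93 for *Vmn1r210* and 0.84 for *Vmn1r211*). The largest of the 3 pairwise differences, exon 4 minus exon 3, was a log2 difference of -0.22 (SE 0.34) for *Vmn1r210* and -0.48 (SE 0.40) for *Vmn1r211*; at this precision a difference of that size between guides was not detectable, and 0 of 16236 genes (0%) were called by guide, with 548 at an unadjusted p under 0.05.

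Reads were not confined to annotated exons of the receptor genes. Single TE copies, counted by the authors from uniquely mapped reads, gave a measure of the introns and flanks. The 6 intronic TE copies of *Vmn1r211* held 47 reads in *Trim28*-KO NPCs, 0.56 ± 0.23 CPM per kb of TE (SD, n = 6), beside 0.65 ± 0.18 CPM per kb of exon. Within 10 kb upstream of its start, 10 TE copies held 381 reads, 0.56 ± 0.14 CPM per kb. For *Vmn1r210*, its single intronic copy held 28 reads, 0.77 ± 0.48 CPM per kb, and 14 upstream copies held 1154 reads, 0.93 ± 0.21 CPM per kb, beside 0.79 ± 0.13 CPM per kb of exon. For each gene, the levels per length of exons, introns and flank overlapped within 1 SD, and the lacZ libraries had 0 reads in the upstream copies. The intronic copies cover only 840 bases for *Vmn1r211* and 341 for *Vmn1r210*. Reads that reach beyond such short copies can raise their level per kb, which was not tested, so equal coverage is not shown.

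Among the upstream copies of *Vmn1r210*, Lx6_dup13687, a LINE fragment at chr13:22831515-22832580 on the minus strand that begins just beyond the annotated gene start, had 25, 54, 27, 39, 45 and 30 reads in cultures g3a, g3b, g4a, g4b, g13a and g13b. L1_Mus3_dup37481, another LINE fragment (chr13:22833139-22834486, minus strand), had 29, 56, 34, 48, 38 and 15. ORR1A0-int_dup375, the internal part of a MaLR element (chr13:22835674-22837354, minus strand), had 23, 52, 22, 33, 36 and 15. The copies of this flank with 10 or more reads were L1 and Lx LINEs, ORR1A0 and RMER16 pieces, at 11 to 220 reads in all. Upstream of *Vmn1r211*, Lx_dup18576 (chr13:22859408-22860296, minus strand) had 99 reads, L1_Mur3_dup20426 (chr13:22862607-22863265, plus strand) 97, RLTR22_Mur_dup1835 54, B3_dup114896 49 and RLTR41C_dup115 40. In exons of *Vmn1r211*, the copies MT2B_dup10574, MTD_dup39665, MTD_dup39666, MTD_dup39667 and ORR1A3-int_dup1791 had 10 to 38 reads, and B3_dup114894 in an exon of *Vmn1r210* had 36. Every TE copy named in this paragraph had 0 reads in both lacZ libraries.

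The tables do not keep the strand of a read. TE copies inside an exon of a single gene received 2182325 reads in the NPC libraries where they lie on the strand of the gene and 2010538 where they lie on the opposite strand, so 48.0% of such reads were credited to the opposite strand, and the share was 40.2% to 46.4% in the other experiments. No direction of transcription is therefore given for any TE copy or gene, and reads of features on opposite strands that overlap cannot be told apart.

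Further receptor genes of the window followed the same split. *Vmn1r-ps114*, a pseudogene that lies between *Vmn1r210* and *Vmn1r211*, had 3 to 21 reads per *Trim28*-KO NPC library, *Vmn1r212* 5 to 35, *Vmn1r213* 15 to 38 and *Vmn1r214* 8 to 18, and all had 0 in both lacZ libraries. Against the same floor these genes were at least 4.80, 6.99, 9.33 and 5.16-fold higher. *Vmn1r-ps123* had 0 to 4 reads, a mean at or under the floor, so no fold is given. In the order of levels per kb of exon, *Vmn1r212* stood first at 0.93, followed by *Vmn1r210* at 0.79, *Vmn1r-ps114* at 0.72, *Vmn1r211* at 0.65, *Vmn1r213* at 0.24 and *Vmn1r214* at 0.20. Among the first 4 the values of single libraries overlapped, while every library of *Vmn1r213* and *Vmn1r214* lay below every library of *Vmn1r210* and *Vmn1r211*.

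**Figure D2:**
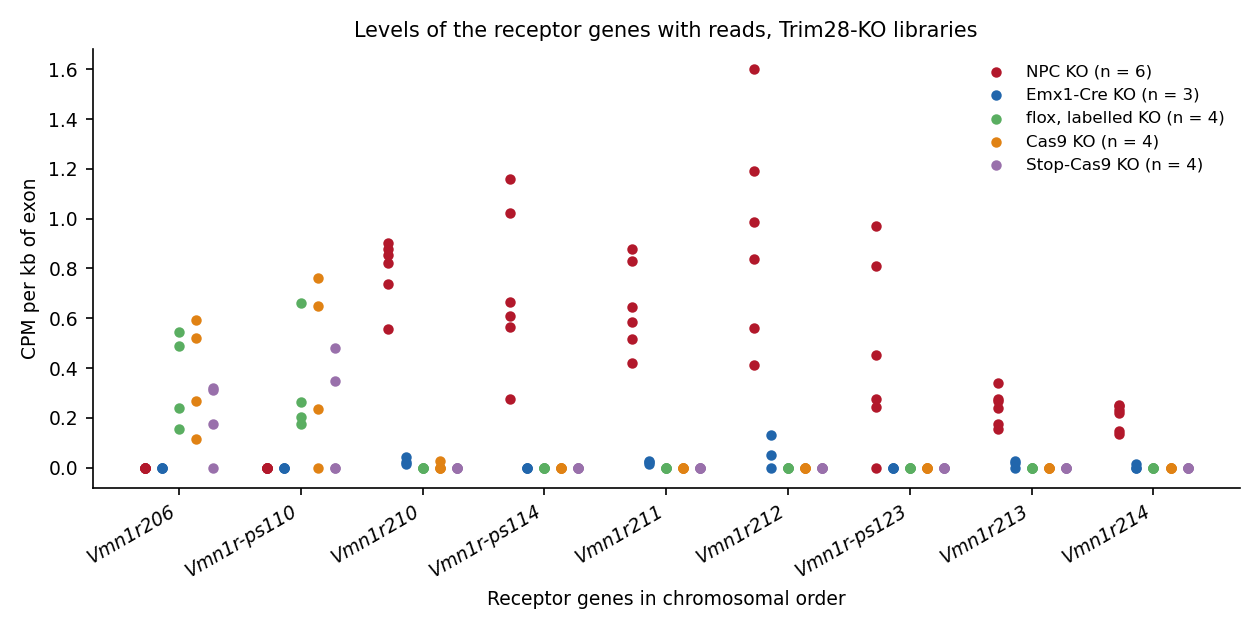
CPM per kb of exon in Trim28-KO libraries for the 9 receptor genes of the window with at least 10 reads in an experiment, in chromosomal order; a point is a library. From Vmn1r210 to Vmn1r214 the NPC libraries lie above the others, which are at or near 0, apart from 1 NPC library at 0 for Vmn1r-ps123, and Vmn1r206 and Vmn1r-ps110 have reads only in sorted adult nuclei.

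Counted over the window, 6 of the 57 genes passed the filter on low counts in the NPC experiment, all of them through the *Trim28*-KO group, and 4 of those, *Vmn1r210*, *Vmn1r211*, *Vmn1r213* and *Vmn1r214*, met the thresholds by which genes were called higher in *Trim28*-KO (edgeR adjusted p under 0.05 and log2 fold change above 0.5), which 0.176% of all genes tested met. The receptors were chosen on this contrast, the window was drawn around them, and a gene that passed the filter had to be higher in *Trim28*-KO, so the count is a description and no test. With the number series as a block all 6 were called; without *Trim28*-KO library g3b, g4b or g13b the count was 2, and without either lacZ library it was 0. Of the remaining window genes, 12 reads in *Trim28*-KO and 2 in lacZ fell in genes that are not *Vmn1r*, and 29 of the 41 *Vmn1r* genes had no read in any NPC library. Of the receptor genes that flank the group from *Vmn1r210* to *Vmn1r214*, *Vmn1r209* had 0 reads and *Vmn1r215* had 3 in *Trim28*-KO.

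Promoter sequences of RefSeq (GRCm38.p6, 250 bases before to 50 after the gene start) were found for 3 of the genes with this split and are printed because the genes share it. *Vmn1r211* in RefSeq starts at its coding exon, inside the gene as the count table draws it. The RefSeq starts of *Vmn1r212* and *Vmn1r213* also lie inside their counted genes, chr13:22883042-22884205 and chr13:23007656-23014482. The capitals mark TATAAA, a core promoter motif searched on both strands.
Vmn1r211, chr13:22852446-22852745, minus strand: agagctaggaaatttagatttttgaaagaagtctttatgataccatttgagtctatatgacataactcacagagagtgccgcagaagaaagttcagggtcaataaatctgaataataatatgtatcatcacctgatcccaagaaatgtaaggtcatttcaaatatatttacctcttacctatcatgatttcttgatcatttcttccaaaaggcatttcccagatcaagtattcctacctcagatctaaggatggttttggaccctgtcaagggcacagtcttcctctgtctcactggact
Vmn1r212, chr13:22884112-22884411, minus strand: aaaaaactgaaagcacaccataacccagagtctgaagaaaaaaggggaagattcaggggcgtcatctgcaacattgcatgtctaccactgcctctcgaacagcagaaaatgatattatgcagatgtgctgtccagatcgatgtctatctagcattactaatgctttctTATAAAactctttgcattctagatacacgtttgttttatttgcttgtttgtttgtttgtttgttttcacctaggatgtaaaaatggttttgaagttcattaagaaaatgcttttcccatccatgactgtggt
Vmn1r213, chr13:23010999-23011298, plus strand: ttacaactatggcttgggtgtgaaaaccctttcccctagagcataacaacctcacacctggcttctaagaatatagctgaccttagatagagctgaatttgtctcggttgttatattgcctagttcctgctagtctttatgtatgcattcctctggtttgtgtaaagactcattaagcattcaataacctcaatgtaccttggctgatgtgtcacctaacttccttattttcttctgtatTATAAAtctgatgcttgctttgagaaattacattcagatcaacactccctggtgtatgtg
TATAAA was present in 13.6% of all 32851 promoters of the table and in 6 of 19 window *Vmn1r* promoters, among them *Vmn1r212*, *Vmn1r213* and *Vmn1r209*, which had 0 reads. CCCNNGGG, the core of the motif of EBF factors, which act in olfactory sensory neurons, was present in 13.7% of all promoters and in 0 of those 19.

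TE copies gave a map of the whole locus. Of 915 copies in the window, 170 had reads in *Trim28*-KO NPCs and 4 in lacZ, with 4745 and 5 reads in all. By library the sum was 1245, 681 and 818 reads in g3a, g4a and g13a, 943, 739 and 319 in g3b, g4b and g13b, and 1 and 4 in lacZ-a and lacZ-b. Of the 33 copies that passed the filter, 21 were called higher in *Trim28*-KO, beside 0.55% of all 35091 copies tested, and leaving out either lacZ library left 4. With 5 lacZ reads in the window, these copies passed the filter through the *Trim28*-KO group, so this count too is a description and no test. LINEs, SINEs and the remaining copies, LTR elements among them, all took part: 30 of 302 LINE copies, 10 of 186 SINE copies and 43 of 427 remaining copies had 10 or more reads. Copies were sorted by name, so the remaining ones may include repeats other than LTR elements.

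Those reads fell in separate stretches, joined here wherever TE copies or receptor genes, each with 10 or more reads in *Trim28*-KO NPCs, lay within 10 kb of each other. The stretch of *Vmn1r210*, *Vmn1r-ps114* and *Vmn1r211* was 38.8 kb long (chr13:22825875-22864666) and held 1954 TE reads in *Trim28*-KO NPCs. The stretch of *Vmn1r212* was 9.77 kb long (chr13:22882793-22892558) with 721 TE reads, led by Lx5c_dup12379 with 145. A further stretch of 55.0 kb (chr13:22982983-23037957) held *Vmn1r-ps123*, *Vmn1r213* and *Vmn1r214* with 1866 TE reads. Between the stretches of *Vmn1r212* and *Vmn1r213* lay IAP1-MM_I-int_dup400 alone, with 59 reads, and then a gap of 72.6 kb in which a single copy of 84 had reads, 6 in all. Below *Vmn1r210*, 15 copies over 10.9 kb held 18 reads, and a copy beyond them at chr13:22814597-22815009 held 10. Beyond *Vmn1r214*, 242 copies over 223 kb held 12 reads. The lacZ libraries had 0 TE reads in each of these stretches.

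**Figure D3:**
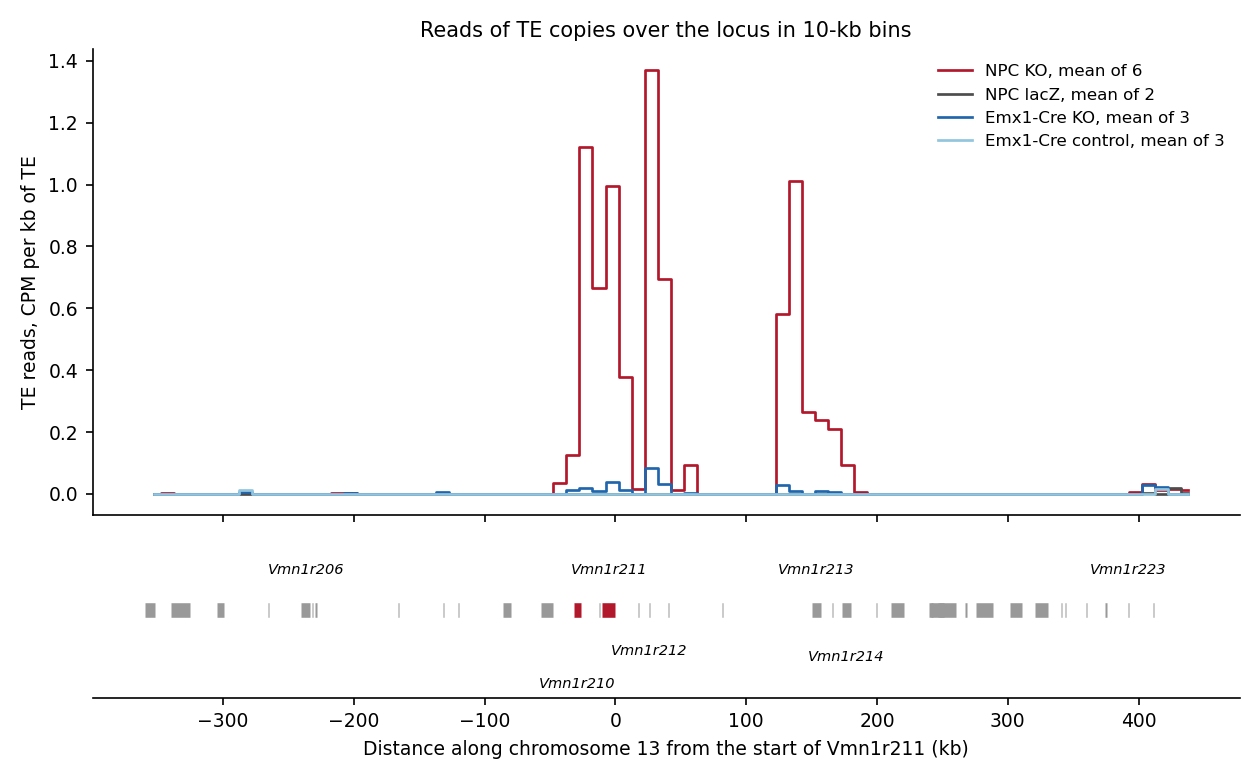
Reads of TE copies in 10-kb bins over the window, as mean CPM per kb of TE (top), against the distance from the start of Vmn1r211, with Vmn1r genes as boxes below (Vmn1r210 and Vmn1r211 in red). Trim28-KO NPC reads lie in blocks around Vmn1r210 to Vmn1r212 and around Vmn1r213 and Vmn1r214, the Emx1-Cre Trim28-KO mean is above 0 in the same blocks, and the lacZ line is at or near 0.

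At the low end of the 55.0 kb stretch lay copies of the ERV family IAP. IAP1-MM_I-int_dup402 had 11 reads, IAP1-MM_I-int_dup403 (chr13:22983994-22985879, plus strand, internal IAP sequence) had 143 reads and IAP1-MM_LTR_dup331 (chr13:22985880-22986194, plus strand), the LTR that follows it, had 76, with 0 in lacZ. The end of this LTR and its flank (chr13:22986095-22986294, plus strand, GRCm38.p6) are shown as the boundary between the IAP element and the copies beyond it; capitals mark the LTR.
IAP1-MM_LTR_dup331: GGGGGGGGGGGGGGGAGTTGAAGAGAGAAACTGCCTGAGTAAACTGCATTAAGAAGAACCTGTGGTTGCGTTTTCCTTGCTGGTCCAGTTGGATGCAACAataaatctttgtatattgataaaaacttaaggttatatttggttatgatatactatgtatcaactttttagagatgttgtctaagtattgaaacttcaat
The copy with the most reads over the 6 *Trim28*-KO cultures was Lx3B_dup4582, a LINE fragment at chr13:22993146-22994525 on the plus strand, with 166, 79 and 58 reads in g3a, g4a and g13a, 27, 24 and 11 in g3b, g4b and g13b, and 0 in lacZ. This rank rested on series 1: in series 2 it was at 1.29 CPM, below Lx6_dup13687 at 2.67 and L1_Mus3_dup37481 at 2.40 CPM. Per kb Lx3B_dup4582 was at 2.56 CPM, below Lx5c_dup12378 at 4.17 and Lx5c_dup12379 at 3.18. These 2 copies are 229 and 451 bases long, against 1380 for Lx3B_dup4582, and the part of length in this order was not tested.

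That copy differed between the series of sample numbers, which led to a test of the series within the *Trim28*-KO cultures with guide as a term; for TE copies this test was added after the values were seen. Of the 33 window copies tested, 8 were higher in series 1 and 0 in series 2 (edgeR adjusted p from 0.00135 to 0.0487), beside 6.84% of all copies tested. The 8 include Lx3B_dup4582, the copy that prompted the test and the one with the lowest adjusted p, so the count is no independent evidence. All 8 lay in 11.7 kb (chr13:22983994-22995670), where 10 copies were tested, with log2 differences, series 2 minus series 1, of -2.96 to -1.23. The other 2 were MYSERV6-int_dup2352 and IAP1-MM_LTR_dup331, the LTR printed above, at -1.14 (edgeR adjusted p = 0.12) and -0.02 (edgeR adjusted p = 0.99). In the rest of the window 0 of 23 copies passed, with log2 differences of -0.49 to 1.41. Summed over the 18 copies of the 11.7 kb, series 1 held 31.0, 15.8 and 12.7 CPM and series 2 held 7.35, 5.23 and 4.22 CPM, and the lacZ cultures of both series had 0. The called copies set the bounds of this part, so its sums and its contrast with the rest of the window are a description. The count was 4 without g3a, g4a, g3b or g4b and 5 without g13a or g13b.

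Neither receptor gene passed that test. *Vmn1r210* was at 2.49 ± 0.52 CPM in series 1 and 3.04 ± 0.14 CPM in series 2 (log2 difference 0.30, SE 0.28, edgeR adjusted p = 0.50), and *Vmn1r211* at 3.72 ± 0.68 and 3.31 ± 1.32 CPM (log2 difference -0.19, SE 0.33, edgeR adjusted p = 0.72; SD, n = 3 a series). Over all genes, 10.3% differed between the series, and none of the 6 tested receptor genes was among the differing ones. *Trim28* stood at 46.7 ± 13.2 and 55.5 ± 16.9 CPM (log2 difference 0.24, edgeR adjusted p = 0.26).

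**Figure D4:**
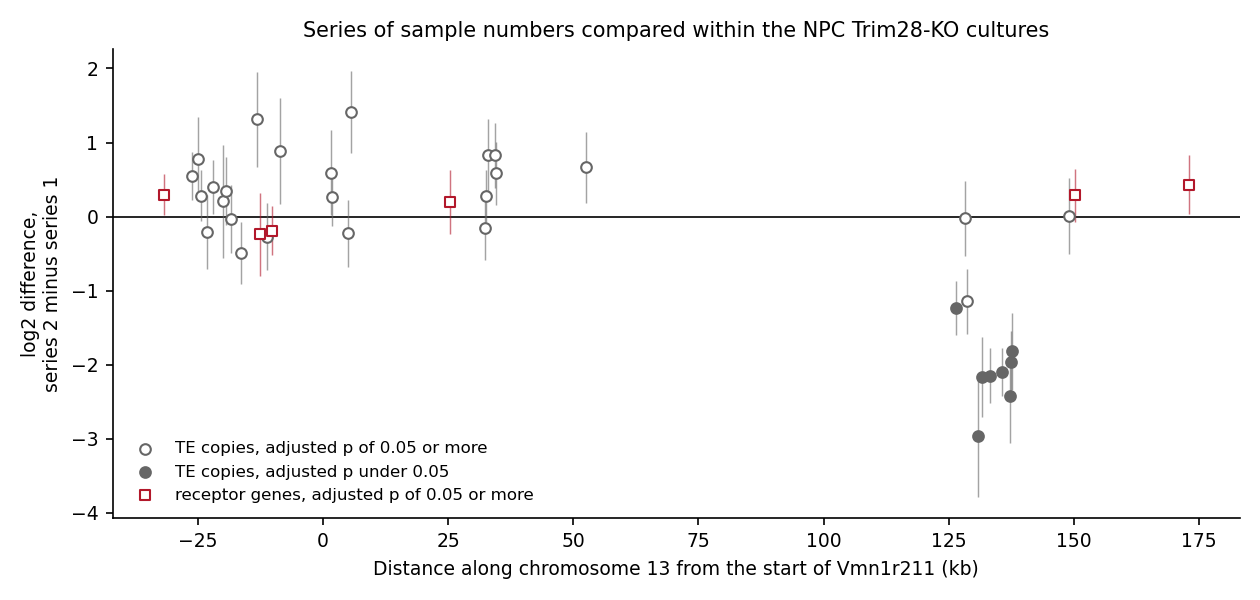
Log2 difference between the series of sample numbers (series 2 minus series 1, ± SE) in the 6 Trim28-KO NPC cultures for 33 TE copies (circles) and 6 receptor genes (squares), against the distance from the start of Vmn1r211; filled symbols have an adjusted p under 0.05. The filled symbols are 8 TE copies within 11.7 kb, all below 0, and all receptor genes are open.

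In adult cortex after Emx1-Cre deletion the receptor genes were at the edge of detection. *Vmn1r210* had 1, 3 and 1 reads in the *Trim28*-KO animals 60, 73 and 76 and 0 in the 3 controls, and *Vmn1r211* had 2, 3 and 1 against 0. That is 0.097 ± 0.051 CPM and 0.116 ± 0.038 CPM (SD, n = 3), each at or under the floor of 3 reads in these libraries (0.155 to 0.237 CPM), so no fold is given. All 3 *Trim28*-KO animals were above all 3 controls for both genes, and the exact two-sided permutation test gave p = 0.1 for each, the smallest that 3 against 3 samples allow. *Vmn1r212* had 4 reads, *Vmn1r213* 4 and *Vmn1r214* 1 in *Trim28*-KO cortex and 0 in controls.

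Sums over the window had the same order in the cortex, and the *Vmn1r* sum holds the receptors themselves, with 11 of its 21 reads in *Trim28*-KO. *Vmn1r* reads were at 0.396 to 0.465 CPM in *Trim28*-KO animals and 0 to 0.0444 CPM in controls, 21 reads against 1, and TE copies at 1.08 to 2.61 CPM against 0.181 to 0.272 CPM, 7.77-fold for the means (exact permutation p = 0.1 for each, two-sided, again the smallest possible). Without *Vmn1r210* and *Vmn1r211* the *Vmn1r* sum was 0.155 to 0.237 CPM against 0 to 0.0444 CPM, 10 reads against 1 (exact permutation p = 0.1), a sum added after the values were seen. Marker lists also separated the cortex groups without overlap: the oligodendrocyte markers summed to 1692 to 1901 CPM in *Trim28*-KO and 2110 to 2278 CPM in controls, the inhibitory neuron markers to 696 to 779 CPM and 788 CPM or more, and the progenitor markers to 118 to 147 and 93.8 to 101 CPM. Their part in the window values was not tested. No window gene and no window TE copy passed the filter on low counts there, so 0 were called, beside 1.32% of genes and 2.92% of TE copies over the genome. MMERVK10C-int_dup2558, a full-length ERV of the window at chr13:23260689-23267655, had 0, 8 and 6 reads in *Trim28*-KO cortex, 0 in cortex controls, 1 to 9 in *Trim28*-KO NPCs, 0 in lacZ NPCs, 7 in a Cas9 *Trim28*-KO animal, 5 in a Stop-Cas9 *Trim28*-KO animal, 1 in a flox library labelled control and 0 in the other libraries, and lay 403 kb from *Vmn1r211*.

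In sorted adult nuclei the receptor genes had a single read in 18 libraries. All 8 flox libraries had 0 reads of *Vmn1r210* and *Vmn1r211*, with floors of 3 reads at 0.127 to 0.172 CPM. Cas9 and Stop-Cas9 nuclei had 0 reads apart from a single *Vmn1r210* read in the Cas9 animal with the guide to exon 13, with floors of 0.228 to 0.338 CPM. In each of these experiments 1 window gene, *Vmn1r206*, and 0 window TE copies passed the filter, and 0 were called by edgeR or DESeq2 (at an unadjusted edgeR p under 0.05, 1 in Cas9 and 0 in flox and Stop-Cas9), beside 0.0409% of genes and 0.00641% of TE copies in flox, 0% and 0.165% in Cas9, and 0% and 0.0123% in Stop-Cas9.

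Another receptor gene of the window had reads only in sorted nuclei. *Vmn1r206* (chr13:22617456-22624251) had no read in NPCs or cortex, and was present in nuclei of every flox library, with 11 to 45 reads in those labelled *Trim28*-KO and 19 to 50 in those labelled control (1.42 ± 0.75 against 1.83 ± 0.87 CPM, SD, n = 4, log2 fold change -0.35, SE 0.48, edgeR adjusted p = 0.98). Cas9 *Trim28*-KO animals had 5, 24, 31 and 12 reads and the single lacZ animal 0, and Stop-Cas9 *Trim28*-KO animals had 0, 14, 8 and 13 with 9 in the single lacZ animal. Its neighbour *Vmn1r-ps110* had 4 to 13 reads in each flox library and 0 in every NPC and cortex library.

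Single nuclei of cortex held at most 1 UMI of either receptor per animal. Over 3130 to 3871 nuclei and 29127314 to 33524892 UMIs per animal, *Vmn1r211* had 1 UMI in *Trim28*-KO animal 60 (exact Poisson 95% interval 0.025 to 5.57) and 0 in the other 3 animals, and *Vmn1r210* had 0 in all 4 (upper bound 3.69 UMIs each), while *Vmn1r213* had 1 UMI in *Trim28*-KO animal 73. These intervals cover counting error only. *Trim28* had 265 and 258 UMIs in the *Trim28*-KO animals and 279 and 247 in the controls; whether the counted tags lie in the excised part is not given in the sources used here, so they do not check the genotypes. Pairs of animals shared 0 to 20 cell barcodes, and no doublet caller was run.

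Other chemosensory genes were followed as lists. Of 279 *Vmn1r* genes outside the window 1 passed the filter in NPCs and 0 were called, and their sum was 1.03 to 1.95 CPM in *Trim28*-KO and 0.746 to 0.913 CPM in lacZ, with no overlap. Of 238 *Vmn2r* genes 2 were tested and 0 called, and their sums overlapped, at 3.84 to 13.4 CPM in *Trim28*-KO and 2.93 to 4.94 CPM in lacZ. Of 16 *Taar* genes 0 were tested, and of 1407 *Olfr* genes 19 were tested and 1, *Olfr1349*, was called higher (251 reads against 15, edgeR adjusted p = 0.038), beside 0.176% of all genes. The *Olfr* sum was 55.2 to 61.4 CPM in *Trim28*-KO and 30.8 to 34.0 CPM in lacZ, with no overlap, and the median log2 fold change of the *Olfr* genes tested was 0.83, beside 0.01 for all genes. Some of those tested, among them *Olfr1349*, *Olfr1355* (103 reads against 0) and *Olfr8* (232 against 2), passed the filter through the *Trim28*-KO group. Such genes could enter only if higher in *Trim28*-KO, so this median and the call of *Olfr1349* are a description and no test. In the other 4 experiments 0 genes of these lists were called. Of 17 genes of vomeronasal and olfactory signalling, 7 were tested in NPCs and 0 called. *Trpc2*, the channel on which vomeronasal transduction depends, had 0 reads in every bulk library, and *Omp*, a marker of mature olfactory and vomeronasal neurons, had 1 read in *Trim28*-KO and 3 in lacZ NPCs. The 7 sensory neuron markers summed to 34.4 to 65.2 CPM in *Trim28*-KO and 43.8 to 75.8 CPM in lacZ NPCs. Most of this was *Ncam2*, at a mean of 44.1 CPM in *Trim28*-KO and 56.6 CPM in lacZ. *Gng8*, the next highest, was at 1.00 and 1.46 CPM. The window holds 0 histone genes with Hist1 symbols.

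Progenitor and pan-neuronal markers went with the labelled tissues, but the sums of other lists did not all do so. Astrocyte markers summed to 1376 to 2352 CPM in *Trim28*-KO NPCs and to 860 to 977 CPM in *Trim28*-KO cortex. Most of the NPC sum was *Slc1a3*, at means of 1408 CPM in these NPCs and 436 CPM in this cortex. *Aldh1l1* was also higher in these NPCs, at 175 and 36.1 CPM. *Gfap* (3.95 and 34.6 CPM), *Aqp4* (20.5 and 124 CPM) and *Gja1* (88.0 and 294 CPM) were lower in them. Sorted nuclei of Cas9 *Trim28*-KO animals held oligodendrocyte markers at 262 to 406 CPM. All 8 progenitor markers were tested in NPCs, at 3661 to 7575 CPM in all in *Trim28*-KO and 6003 to 7243 CPM in lacZ, with 0 called. In cortex and in sorted nuclei the 3 pan-neuronal markers summed to 976 CPM or more in every library. The 2 oligodendrocyte progenitor markers summed to 31.1 to 105 CPM in *Trim28*-KO and 133 to 134 CPM in lacZ NPCs, with no overlap and 0 called, and the part of this in the receptor values was not tested. Among the lists, 1 of 3 inhibitory neuron markers tested in NPCs (*Pvalb*, 120 reads against 2, beside 0.176% of all genes) and 1 of 8 progenitor markers in *Trim28*-KO cortex (*Fabp7*, 2392 reads against 1642, beside 1.32% of all genes called in either direction) were called higher, both named after their values were seen, and 0 markers of excitatory neurons, astrocytes, oligodendrocytes and their progenitors or microglia were called in any experiment. *Pvalb* passed the filter through the *Trim28*-KO group, so its call is a description and no test.

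Over the 32 bulk libraries, the genes outside the window whose log2 CPM was most like that of the receptors were the same 5 for both, ranked by Pearson's r among 23181 genes with at least 50 reads. *Olfr1354*, *Olfr1355*, *C730027H18Rik*, *BC048671* and *Olfr8* had r of 0.961 to 0.978 with *Vmn1r210* and 0.959 to 0.973 with *Vmn1r211*, and *Vmn1r210* and *Vmn1r211* had r = 0.99 with each other. Within the 6 *Trim28*-KO cultures alone the pair had r = -0.20 and Spearman's rho = -0.54, so the likeness over all libraries rests on the split by which the genes were chosen. These values describe a shared pattern of presence in *Trim28*-KO NPCs and near absence elsewhere, and the points share libraries and groups. *BC048671* on chromosome 6 had 339 reads in *Trim28*-KO NPCs, 0 in lacZ and 16 in *Trim28*-KO cortex, and 4 of the 5, *Olfr1354* (49 reads), *Olfr1355* (103), *Olfr8* (232) and *C730027H18Rik* (143), lie on chromosome 10, with 0 to 2 reads in lacZ.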

How the data were processed

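The authors mapped strand-specific paired-end reads to GRCm38.p6 with STAR 2.6.0 and deposited raw read counts per gene and per TE copy, made by featureCounts (Subread 1.6.3) from uniquely mapped reads, a table of full-length ERV counts, and TEtranscripts tables of estimated counts, in which reads with several matches are kept and which were rounded here. For single nuclei they deposited UMI counts from Cell Ranger 3.0. In the TE table, 6 columns that belong to no sample listed here were not used. Of 55298 gene identifiers, 54409 matched a symbol.

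Samples were grouped by their labels. CPM used TMM factors of the genes within each experiment, also for TE copies. Calls came from edgeR 4.0.16 quasi-likelihood tests over all genes or TE copies that passed filterByExpr, at an adjusted p (Benjamini-Hochberg) below 0.05 with a log2 change larger than 0.5, upward for NPCs. DESeq2 1.42.0 was an alternative. The gene comparisons of *Trim28*-KO with control in the 5 experiments were tested on simulated data, in which no changed gene was near 0 reads in controls. The fits of TE copies, guides, number series and the replicate block were not simulated. Named were *Trim28*, the receptors, window *Vmn1r* genes with at least 10 reads in an experiment, window TE copies called (at most 12) or with at least 10 reads in exons or within 10 kb upstream of either receptor, and the 5 most correlated genes; further copies and genes were named after their values were seen. The genes and lists were chosen with earlier results of these data known.

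Labels do not say whether NPC cultures came from separate embryos, so p-values may measure technical spread. Strand was checked by TE copies inside exons, and the tables do not keep it. Same-numbered series paired the NPC cultures: their deviations correlated at r = 0.53 to 0.71 over 6 pairs of groups (16469 genes). Depth was 8790346 to 25345083 reads in genes, and a floor of 3 reads stood for a count of 0.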

Additional observations from a re-analysis of the deposited data

Results flagged for a closer look

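*Trim28* changed in opposite directions under the same contrast. Every flox library labelled *Trim28*-KO was above every flox library labelled control (log2 fold change 2.26), and every *Trim28*-KO cortex was below every cortex control (log2 fold change -1.39). The difference between the experiments was not tested.

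By Dixon's ratio, 5 values stood apart from the rest of their group, of 55 groups looked at. Chance flags about 1 in 20. The single *Vmn1r210* read of a Cas9 *Trim28*-KO animal is 0.0913 CPM, beside 0 in the other 3, and any single read among zeros would stand apart in this way. *Vmn1r-ps110* was at 0.689 CPM in a flox library labelled control, beside 0.212 to 0.283 CPM in the other 3. Among *Trim28*-KO NPC cultures, Lx5c_dup12378 was at 0.288 CPM in culture g13b, beside 0.912 to 1.28 CPM; RMER16-int_dup1910 was at 2.07 CPM in culture g13a, beside 0.576 to 1.12 CPM; and RMER16-int_dup1908 was at 0.32 CPM in culture g3a, beside 0 to 0.115 CPM.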

How the results depend on the processing

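The lower bounds for *Vmn1r210* and *Vmn1r211* ranged from 17.2 to 18.9 and from 21.1 to 25.4 over 11 alternatives each (size factors, library totals, TEtranscripts counts and each library left out). Taking 3 reads over both lacZ libraries together raised them by construction, to 35.8 and 45.5. With the replicate block of the number series, which pairs the cultures, 6 window genes, all *Vmn1r*, and 30 TE copies were called in NPCs instead of 4 and 21; without the replicate block the guide difference was -0.19 for *Vmn1r210* and -0.47 for *Vmn1r211* (edgeR adjusted p = 1.00 for both), and no guide or series alternative for these genes passed the test. DESeq2 called 6 genes and 28 TE copies, no filter 5 genes, and the TE copies' own scaling, which takes away a median log2 fold change of 0.20 over all copies, 18. Each library left out in turn gave 0 to 4 genes, 0 to 4 *Vmn1r* genes and 4 to 23 TE copies, and 4 to 5 copies higher in series 1 instead of 8 (6 without a guide term, 7 with library totals, alternatives chosen after seeing the data). Leaving out a lacZ library leaves a single control, assumed to vary like the *Trim28*-KO libraries. The 8 counts of the window in cortex and sorted nuclei were 0 in all 56 alternatives. At the main settings at most 1 gene and 0 TE copies passed the filter in each of these experiments, so these counts could hardly differ from 0. *Trim28* in Stop-Cas9 turned from a log2 fold change of -0.0025 to 0.000305 with DESeq2 and ranged from -0.10 to 0.068 with a library left out. Member UMI sums were 1 with all nuclei and with those kept by detected genes. TE copies were not refitted with no filter. With 2 lacZ libraries, calls in NPCs rest on both controls, and no fold is given for levels at or under 3 reads.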
